A study of Mus musculus with 7 samples.

Results

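Bone morphogenetic protein (BMP) signaling was examined through 10 genes, which were the rows named *Bmp2*, *Bmp4*, *Bmp5*, *Bmp6*, *Bmp7*, *Bmp10*, *Bmpr1a*, *Bmpr2*, *Bmper* and *Smad6* among the 14732 genes listed. All 10 were found. They comprised 6 ligands, 2 receptors and 2 feedback genes. RNA-seq had been performed on outflow tracts (OFTs), the vessel that leads out of the embryonic heart, at embryonic day (E) 11.5. There were 3 control pools (replicates 3, 4 and 5, wild type at *Gata6*) and 4 Gata6STOP/+ pools (replicates 1, 3, 4 and 5). The methods give 4 pairs of OFT per pool for 3 pools per genotype, and do not describe a further Gata6STOP/+ pool. Gata6STOP/+ embryos carry 1 *Gata6* allele with a CRISPR-Cas9 frameshift in exon 2 in every cell, and the line descends from a single selected founder on C57BL/6, the strain in which the injection was done. Values are in CPM, in which the reads of a gene are scaled to a common total per pool, adjusted by the TMM method. Pool values are given in the order of these replicate numbers.

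BMPs are secreted ligands of the TGF-beta superfamily. They bind a complex of type I and type II serine/threonine kinase receptors, which phosphorylates SMAD1, SMAD5 and SMAD9, and these enter the nucleus with SMAD4 to regulate targets such as the *Id* genes. Inhibitory SMADs and secreted binding proteins restrain the pathway, and several of them are induced by it. In the OFT, myocardial BMP acts on the endocardium and on incoming neural crest cells, and is required for cushion formation and septation.

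The pools held 17783655 to 29035529 reads on listed genes in the controls and 24736761 to 34467710 in the Gata6STOP/+ group. *Gata6*, the mutated gene, was at 315, 257 and 286 CPM in controls and at 268, 203, 219 and 217 CPM in Gata6STOP/+ pools. Its mean was 286±28.9 CPM (mean±s.d., n=3) against 227±28.7 CPM (n=4), or 79.2% of the control mean. The groups overlapped because Gata6STOP/+ replicate 1 lay above control replicate 4, and the log2 fold change was -0.34 (s.e. 0.10; limma adjusted *P*=0.389, two-sided exact permutation *P*=0.114). With single pools left out, it ran from -0.42 (without Gata6STOP/+ replicate 1, limma adjusted *P*=0.17) to -0.27 (without control replicate 3, limma adjusted *P*=0.73). The paper reports *Gata6* as decreased with edgeR. No limma setting here gave *Gata6* an adjusted *P* under 0.05. All markers of myocardium, smooth muscle, endothelium and cushion mesenchyme written for these tissues were listed. Summed over a list, myocardial markers reached 10250 to 11908 CPM in control and 7887 to 12684 CPM in Gata6STOP/+ pools, endothelial markers 731 to 969 and 808 to 1008 CPM, smooth muscle markers 2441 to 2889 and 2547 to 3397 CPM, and cushion mesenchyme markers 1093 to 1458 and 811 to 1186 CPM. The sums overlapped between groups for these 4 lists, and also for neural crest and glia (78.3 to 114 and 67.5 to 78.6 CPM), epicardium (302 to 364 and 272 to 387 CPM), pharyngeal epithelium (69.9 to 110 and 83.5 to 117 CPM) and erythroid cells (1536 to 3688 and 1781 to 4717 CPM). For neural crest and glia the overlap was narrow. Log2 fold changes were positive for 1 of 6 myocardial, 6 of 7 endothelial, 4 of 4 smooth muscle and 0 of 5 cushion mesenchyme markers. At an unadjusted limma *P* under 0.05, 2 cushion mesenchyme, 1 myocardial, 1 neural crest and 1 epicardial marker were lower (all genes 3.88%). In the same fit, 1 erythroid marker was higher (all genes 4.17%). Second heart field markers were at 40.7 to 51.6 CPM in control and 53.0 to 80.2 CPM in Gata6STOP/+ pools, without overlap but with a narrow gap. Most of this sum was *Isl1* (means 38.2 and 54.0 CPM, log2 fold change 0.47, limma unadjusted *P*=0.0081, adjusted *P*=0.419). Its groups overlapped narrowly, with control replicate 5 at 42.39 CPM and Gata6STOP/+ replicate 5 at 42.30 CPM. The groups also overlapped for *Fgf10*. Only *Tbx1*, a low gene (4.47 and 5.97 CPM), was without overlap. *Foxd3*, *Fgf8*, *Epcam*, *Cdh1* and *Nkx2-1* were not analysed here.

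The members lie on 6 mouse chromosomes. On GRCm38, *Bmp2* (ENSMUSG00000027358) spans chr2:133552159-133562885 on the plus strand and *Bmp7* (ENSMUSG00000008999) chr2:172868012-172940321 on the minus strand. *Bmp4* (ENSMUSG00000021835) spans chr14:46383520-46390669 and *Bmpr1a* (ENSMUSG00000021796) chr14:34410734-34503341, both on the minus strand. *Bmp5* (ENSMUSG00000032179, chr9:75775364-75900310) and *Bmper* (ENSMUSG00000031963, chr9:23223076-23485200) are on the plus strand, and *Smad6* (ENSMUSG00000036867, chr9:63953076-64022059) is on the minus strand. *Bmp6* (ENSMUSG00000039004, chr13:38345107-38500302), *Bmp10* (ENSMUSG00000030046, chr6:87428994-87437677) and *Bmpr2* (ENSMUSG00000067336, chr1:59763400-59879014) are on the plus strand.

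The promoters were read because the mutated gene encodes a factor that binds GATA sites. The RefSeq promoter table (GRCm38.p6) held 8 of the 10 members, without *Bmp2* and *Bmp7*, and the 250 bases before each start were searched on both strands for 2 motifs. The GATA motif was any of the letters AGATAA, its variant AGATAG, the form TGATAA, or its variant TGATAG, with 1 match counted per place. The GC-rich SMAD motif was GGCGCC, which reads alike on both strands. The first of these motifs was found in 1 of the 8 promoters, that of *Bmp10*, against 16.8% of the 10852 promoters of listed genes. *Bmp10* holds AGATAA at 2 places, whose first bases lie 219 and 33 bases before the start. The GC-rich SMAD motif was found in *Bmpr1a*, 198 bases before the RefSeq start, and in *Bmpr2*, 105 bases before it, against 17.0% of promoters of listed genes. Both of these windows lie inside the gene spans given above and overlap annotated exons of the same genes. These 2 matches are therefore upstream of the RefSeq start only, not of the annotated gene. The promoters of *Bmp10*, the member with the largest difference between groups, and of *Bmp4* and *Smad6*, the members with the highest levels per length, are printed 5′ to 3′ on the strand of the gene, with motif matches in capitals. They cover chr6:87428744-87428993 (plus strand), chr14:46390670-46390919 (minus strand) and chr9:64022060-64022309 (minus strand). These letters describe the windows and do not show that a factor binds there.
Bmp10 promoter: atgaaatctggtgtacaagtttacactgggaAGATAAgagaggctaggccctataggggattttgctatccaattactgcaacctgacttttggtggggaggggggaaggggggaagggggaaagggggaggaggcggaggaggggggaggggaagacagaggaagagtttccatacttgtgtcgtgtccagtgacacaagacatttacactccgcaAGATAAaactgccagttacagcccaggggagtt
Bmp4 promoter: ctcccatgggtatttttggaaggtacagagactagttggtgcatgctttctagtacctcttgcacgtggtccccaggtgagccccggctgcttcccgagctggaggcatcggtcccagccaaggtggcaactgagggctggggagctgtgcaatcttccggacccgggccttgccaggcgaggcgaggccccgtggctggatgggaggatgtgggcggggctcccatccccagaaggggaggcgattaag
Smad6 promoter: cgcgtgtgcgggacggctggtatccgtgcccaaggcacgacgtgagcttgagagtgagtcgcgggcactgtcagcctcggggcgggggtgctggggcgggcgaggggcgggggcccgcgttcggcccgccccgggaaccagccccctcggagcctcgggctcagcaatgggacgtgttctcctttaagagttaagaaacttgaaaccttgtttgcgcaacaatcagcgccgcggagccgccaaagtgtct
Only the *Bmp10* sequence carries capitals, and *Bmp4* and *Smad6* have no match to either motif in these windows.

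To compare genes with each other, CPM was divided by the exon length of the gene in kb. By the median over 7 pools, *Bmp4* was the highest member, at 82.7 CPM per kb (range 69.4 to 99.5), followed by *Smad6* at 74.5 (63.8 to 96.3). Their ranges overlapped, with *Bmp4* higher in 6 of 7 pools. *Bmpr1a*, at 33.3 CPM per kb (28.3 to 37.0), and *Bmp7*, at 32.4 (24.7 to 35.6), came next and overlapped with each other, but not with *Smad6* above or *Bmp2* below. *Bmp2* (11.6, 11.04 to 14.8), *Bmper* (11.3, 8.29 to 11.8) and *Bmpr2* (9.83, 8.66 to 12.4) formed an overlapping run. Below them, *Bmp6* (6.85, 6.18 to 7.97) was apart from its neighbours *Bmpr2* and *Bmp5* in every pool, and *Bmp5* was at 4.05 (3.16 to 4.83). *Bmp10* had the lowest median, 1.29 CPM per kb, and the widest range as a ratio, 0.141 to 14.8.

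**Figure D1:**
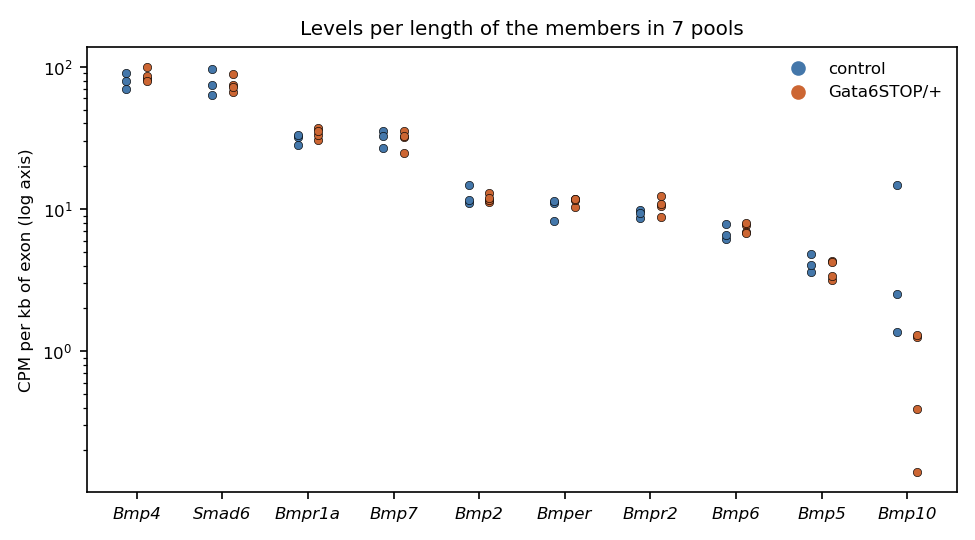
Levels of the 10 members in CPM per kb of exon (log axis), ordered by the median over 7 pools, with 1 point per pool for 3 control (blue) and 4 Gata6STOP/+ (orange) pools. *Bmp4* and *Smad6* lie at 63.8 to 99.5 CPM per kb, and *Bmp10* spreads from 0.141 to 14.8.

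*Bmp4* made up most of the summed ligand level per length, with a median share of 59.3% (49.9% to 63.8%) of the 6 ligands. *Bmp7* followed with 23.0% (19.1% to 24.3%), then *Bmp2* with 8.63% (7.93% to 9.65%), *Bmp6* with 5.03% (4.44% to 5.95%) and *Bmp5* with 2.96% (2.15% to 3.47%). *Bmp10* had a median share of 0.894% but reached 10.6% in control replicate 4, the pool in which the share of *Bmp4* was lowest. Per kb, *Bmp4* exceeded *Bmp2* by 6.11 to 7.69 times and *Bmp7* by 2.11 to 3.35 times in every pool. The type I receptor gene *Bmpr1a* exceeded the type II receptor gene *Bmpr2* by 2.99 to 3.54 times per kb. Most of this ratio came from the exon lengths, 6.35 kb for *Bmpr1a* and 17.98 kb for *Bmpr2*. Before division by length, the means were 198 and 167 CPM in controls and 217 and 192 CPM in Gata6STOP/+ pools.

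The Gata6STOP/+ pools were then compared with controls using limma on log2(CPM + 0.5) over all 14732 genes. At an adjusted *P* under 0.05, 0 members and 0 of all genes (0%) were called. At an unadjusted *P* under 0.05, 1 of the 10 members, *Bmp10*, was lower and 0 were higher, which became 2 (*Bmpr1a*, *Bmpr2*) without Gata6STOP/+ replicate 3 and 1 (*Bmp4*) without control replicate 3. All genes gave 1187 (8.06%), of which 572 were lower (3.88%) and 615 higher (4.17%). Other tests, run on the reads recovered from CPM, called 105 genes (edgeR likelihood ratio test, 0.713%), 88 genes (DESeq2) and 0 genes (edgeR quasi-likelihood test, with 1177 at an unadjusted *P* under 0.05). Among the members these tests called 1, 0 and 0, and the 1 was *Bmp10*. Of the members, 5 had a positive and 5 a negative log2 fold change, with a median of 0.03 against -0.0007 for all genes. The median size of the difference, ignoring sign, was 0.13 for the members and 0.08 for all genes. *Bmp10* was also the 1 member in which the groups did not overlap, a state found in 1248 of all genes (8.47%). No member was called by limma in any of the alternatives tried.

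*Bmp4* and *Bmp7* had the highest levels per length of the member ligands in these bulk pools. *Bmp4* was at 203, 156 and 179 CPM in controls and at 186, 195, 224 and 178 CPM in Gata6STOP/+ pools. Gata6STOP/+ replicate 4 was the highest and control replicate 4 the lowest, and the groups overlapped, at 179±23.3 CPM (n=3) against 196±19.95 CPM (n=4). The log2 fold change of *Bmp4* was 0.13 (s.e. 0.10, 95% interval -0.09 to 0.35; limma adjusted *P*=0.786). *Bmp7* stood at 141, 132 and 109 CPM in controls and at 99.2, 143, 129 and 130 CPM in Gata6STOP/+ pools. Both the highest and the lowest pool were Gata6STOP/+ (replicates 3 and 1). The means were 127±16.7 and 125±18.5 CPM, with a log2 fold change of -0.03 (interval -0.30 to 0.24; limma adjusted *P*=0.974), whose sign turned when control replicate 3, control replicate 4 or Gata6STOP/+ replicate 1 was left out (0.05, 0.003 and 0.08).

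*Bmp2*, which is required in atrioventricular myocardium for cushion formation, was at 52.5, 39.3 and 41.3 CPM in controls and at 39.7, 41.3, 46.0 and 42.7 CPM in Gata6STOP/+ pools. A single control pool, replicate 3, stood above all others. The group means were 44.3±7.10 and 42.4±2.67 CPM. The log2 fold change of *Bmp2* was -0.05 (interval -0.27 to 0.16; limma adjusted *P*=0.917) and became 0.07 without control replicate 3. *Bmp6*, a close relative of *Bmp5* and *Bmp7*, was at 30.5, 24.1 and 25.8 CPM in controls and at 30.1, 26.7, 31.1 and 26.3 CPM in Gata6STOP/+ pools, with control replicate 3 among the high Gata6STOP/+ pools. Its log2 fold change was 0.09 (interval -0.12 to 0.31; limma adjusted *P*=0.841). *Bmp5* was at 14.5, 19.4 and 16.3 CPM in controls and at 12.7, 17.4, 13.5 and 17.2 CPM in Gata6STOP/+ pools. Its highest pool was control replicate 4, in which *Bmp2*, *Bmp4*, *Bmp6*, *Bmper* and *Smad6* were at their lowest. The log2 fold change of *Bmp5* was -0.14 (interval -0.44 to 0.16; limma adjusted *P*=0.837).

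Of the receptors, *Bmpr1a* encodes ALK3, the type I receptor through which BMP2 and BMP4 signal. It was at 180, 203 and 212 CPM in controls and at 235, 195, 212 and 224 CPM in Gata6STOP/+ pools. The means were 198±16.5 and 217±17.1 CPM, and Gata6STOP/+ replicate 3 lay below 2 of the 3 controls. The log2 fold change of *Bmpr1a* was 0.13 (s.e. 0.08, interval -0.04 to 0.30; limma adjusted *P*=0.735). *Bmpr2*, the type II receptor that activates it, was at 156, 177 and 169 CPM in controls and at 222, 159, 189 and 196 CPM in Gata6STOP/+ pools. Of the Gata6STOP/+ pools, 3 exceeded every control, and replicate 3 lay among the controls. The means were 167±10.7 and 192±26.1 CPM, with a log2 fold change of 0.19 (s.e. 0.10, interval -0.03 to 0.41; limma adjusted *P*=0.681). Both receptors were highest in Gata6STOP/+ replicate 1 and lowest in control replicate 3.

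Both feedback genes restrain or tune the pathway. *Smad6* encodes an inhibitory SMAD that BMP signaling induces, and it was at 309, 204 and 239 CPM in controls and at 239, 214, 287 and 230 CPM in Gata6STOP/+ pools. The controls held both the highest and the lowest value. The means were 251±53.1 and 242±31.4 CPM, with a log2 fold change of -0.04 (interval -0.33 to 0.26; limma adjusted *P*=0.963) that became 0.12 without control replicate 3 and 0.02 without Gata6STOP/+ replicate 3. *Bmper*, a secreted BMP-binding protein of endothelium, was at 53.5, 40.1 and 54.8 CPM in controls and at 57.0, 49.7, 56.1 and 56.6 CPM in Gata6STOP/+ pools. Control replicate 4 stood lowest and Gata6STOP/+ replicate 3 second lowest. The log2 fold change was 0.16 (interval -0.07 to 0.39; limma adjusted *P*=0.748), and it was 0.02 without control replicate 4. Over the 9 members other than *Bmp10*, the 95% intervals reached from 0.738-fold (*Bmp5*) to 1.32-fold (*Bmpr2*) of the control level.

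**Figure D2:**
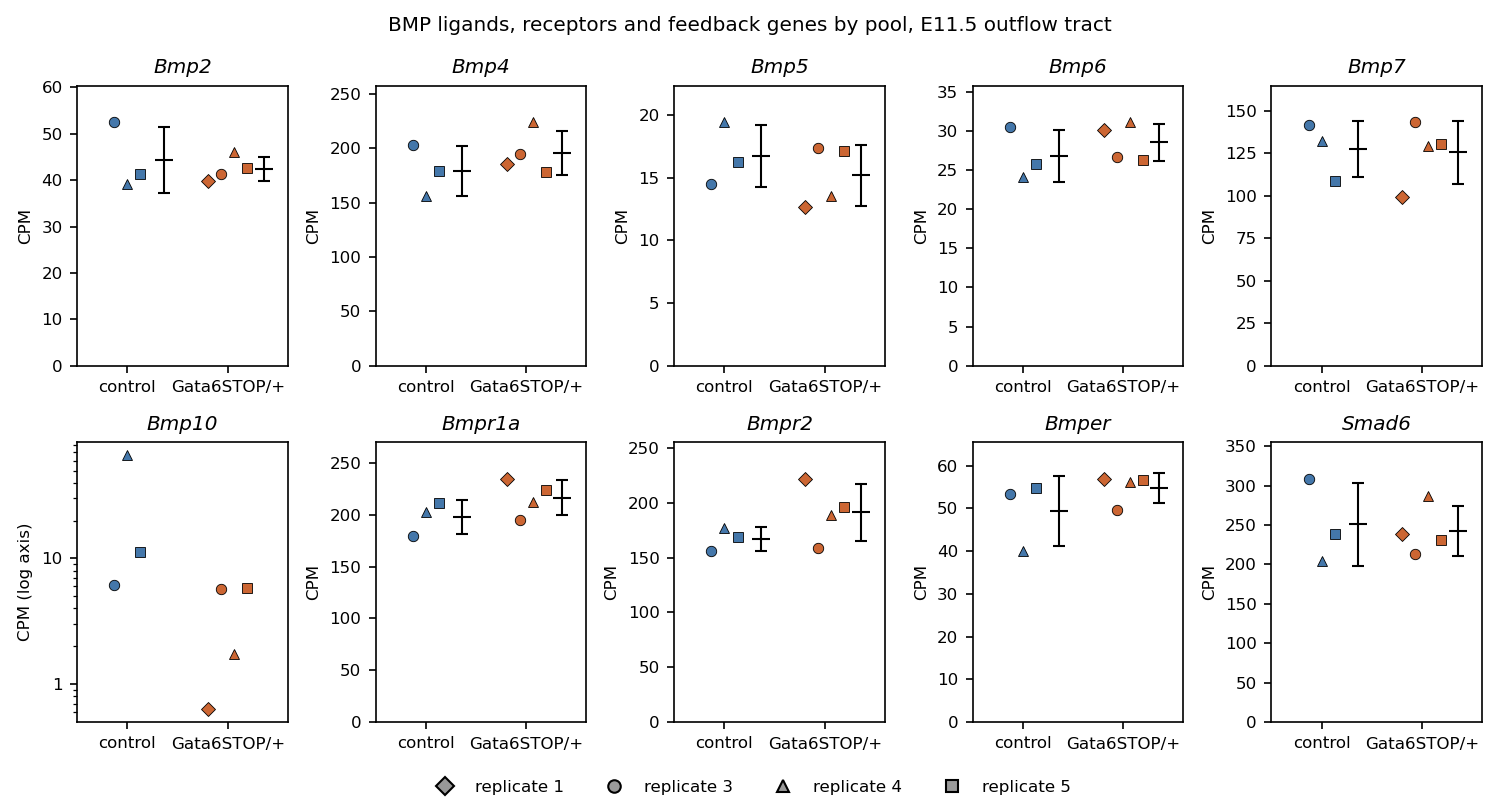
Level of each member in CPM by pool, with control pools in blue, Gata6STOP/+ pools in orange, a marker shape for each replicate number, and bars for mean±s.d. where the axis is linear. The groups overlap for every member but *Bmp10*, drawn on a log axis, whose 3 controls lie at 6.14 to 66.5 CPM and whose 4 Gata6STOP/+ pools lie at 0.631 to 5.79 CPM.

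*Bmp10* encodes a ligand of the trabecular ventricular and, later, atrial myocardium that sustains growth of the embryonic ventricle. It was at 6.14, 66.5 and 11.3 CPM in controls (128, 1927 and 202 reads) and at 0.631, 5.69, 1.75 and 5.79 CPM in Gata6STOP/+ pools (18, 157, 43 and 199 reads). Every Gata6STOP/+ pool was below every control pool, as in 613 of all genes (4.16%). The margin was narrow: control replicate 3 had an exact 95% Poisson interval of 5.12 to 7.30 CPM and Gata6STOP/+ replicate 5 one of 5.01 to 6.65 CPM, intervals that cover counting error only. The means were 28.0±33.5 CPM (n=3) and 3.46±2.66 CPM (n=4), an 8.08-fold difference. Without control replicate 4 the control mean was 8.73 CPM and the difference 2.52-fold. Leaving out control replicate 3 or 5 gave 11.2- and 10.5-fold.

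The log2 fold change of *Bmp10* was -2.46 (s.e. 0.76, 95% interval -4.13 to -0.79; limma unadjusted *P*=0.0079, adjusted *P*=0.419). A two-sided exact permutation test gave *P*=0.0571, the smallest value that 3 pools against 4 allow. EdgeR's likelihood ratio test put *Bmp10* past the threshold (log2 fold change -3.01, adjusted *P*=0.0317), whereas its quasi-likelihood test (-3.01, adjusted *P*=0.328) and DESeq2 (-3.02, adjusted *P*=0.276) did not. Without control replicate 4, limma gave -1.49 (adjusted *P*=0.524), and over all alternatives the adjusted *P* ran from 0.0317 to 0.686.

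The pattern of *Bmp10* over the pools was most like those of *Nppa*, *Nppb* and *Cited1* among 11626 genes that averaged 5 CPM or more. The measure was the root mean square difference of log2 values centred on each gene's mean over 7 pools, which was 0.559, 0.727 and 0.803. *Nppa* and *Nppb* encode natriuretic peptides of the working, trabecular myocardium, and *Cited1* a transcriptional coregulator. *Nppa* was at 32.1, 174 and 18.3 CPM in controls and at 3.26, 28.3, 6.63 and 11.8 CPM in Gata6STOP/+ pools (log2 fold change -2.27, limma adjusted *P*=0.455). *Nppb* was at 10.2, 58.1 and 13.3 CPM in controls and at 3.999, 10.9, 7.28 and 12.7 CPM in Gata6STOP/+ pools (log2 fold change -1.27, limma adjusted *P*=0.575). As for *Bmp10*, the highest pool was control replicate 4 and the lowest Gata6STOP/+ replicate 1. *Cited1* was at 25.9, 143 and 37.5 CPM in controls and at 11.2, 39.3, 23.6 and 39.4 CPM in Gata6STOP/+ pools (log2 fold change -1.02, limma adjusted *P*=0.683). Without control replicate 4 the log2 fold changes of *Nppa*, *Nppb* and *Cited1* were -1.33, -0.52 and -0.29. Without Gata6STOP/+ replicate 1 that of *Cited1* was -0.64.

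Control replicate 4 exceeded the next control 5.88-fold for *Bmp10*, 5.42-fold for *Nppa* and 4.36-fold for *Nppb*. It did so 1.39-fold for *Myl2*, the ventricular myosin light chain, and 1.29-fold for *Irx4*, a ventricular homeobox gene. *Myl2* was at 1200, 1784 and 1283 CPM in controls and at 652, 1461, 1001 and 1158 CPM in Gata6STOP/+ pools. *Irx4* was at 19.5, 36.1 and 27.9 CPM in controls and at 8.73, 25.9, 15.6 and 20.6 CPM. Both genes were also highest in control replicate 4 and lowest in Gata6STOP/+ replicate 1. The remaining ventricular markers were not highest in control replicate 4. *Myl3*, another ventricular myosin light chain, was at 1301, 1234 and 1158 CPM in controls and at 755, 1177, 1091 and 1022 CPM in Gata6STOP/+ pools, with its highest value in control replicate 3. *Hey2*, a ventricular transcriptional repressor, was at 75.5, 90.5 and 88.4 CPM in controls and at 93.3, 99.4, 99.7 and 95.7 CPM in Gata6STOP/+ pools, and every Gata6STOP/+ pool exceeded every control. All 6 of 6 ventricular and trabecular markers were listed, with a summed level of 2589 to 3376 CPM in control and 1517 to 2802 CPM in Gata6STOP/+ pools. At an unadjusted *P* under 0.05, 4 of the 6 were lower (all genes 3.88%) and 1, *Hey2*, was higher (all genes 4.17%), and limma called 0 after adjustment. None of these markers was at 0 in any pool. The part of ventricular tissue in the *Bmp10* values was not tested, and in bulk pools fewer cells of a type and less RNA per cell cannot be told apart.

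**Figure D3:**
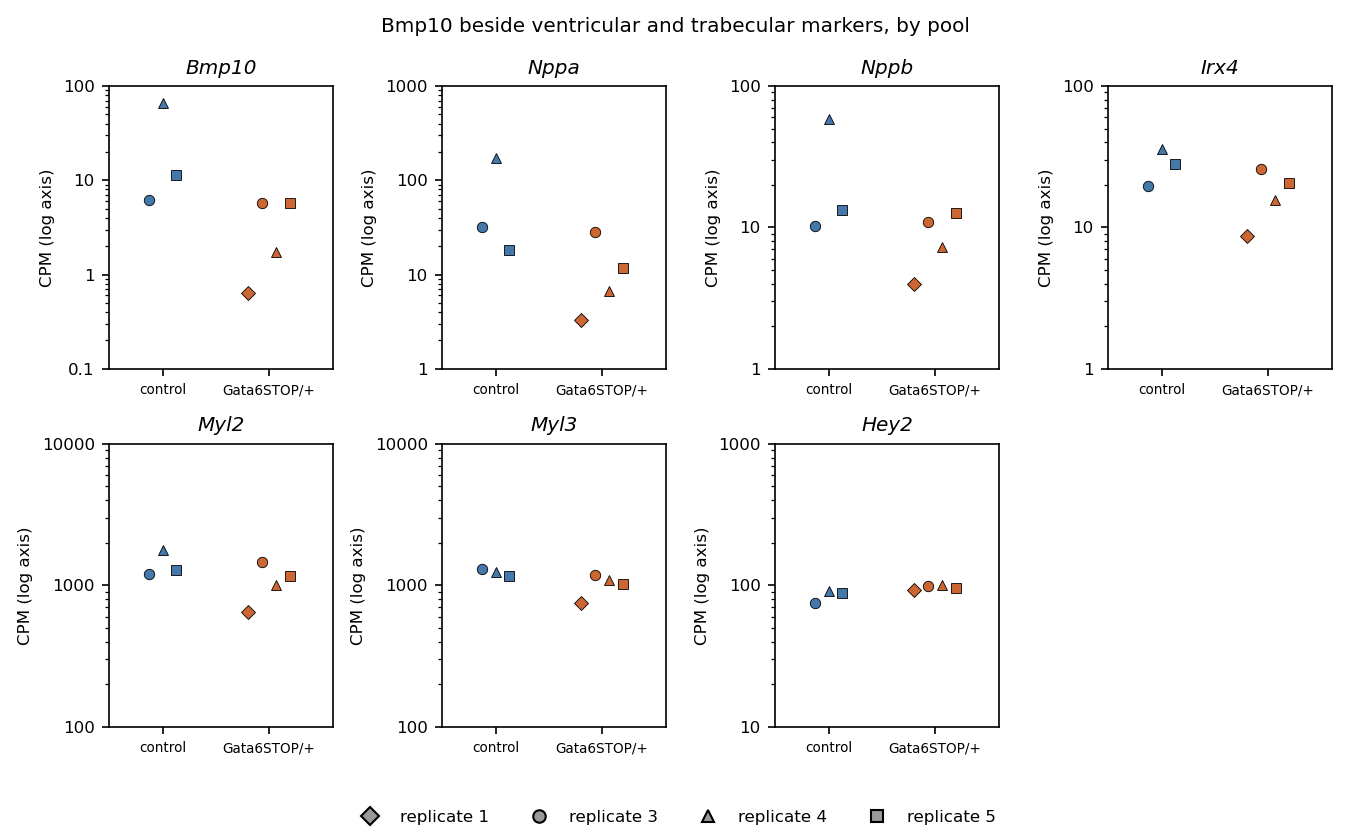
Level in CPM (log axes) of *Bmp10* and of all 6 ventricular and trabecular markers by pool, with control pools in blue, Gata6STOP/+ pools in orange and a marker shape for each replicate number. *Bmp10*, *Nppa*, *Nppb*, *Irx4* and *Myl2* are highest in control replicate 4 and lowest in Gata6STOP/+ replicate 1, whereas *Myl3* is highest in control replicate 3 and *Hey2* is lowest there, at 75.5 CPM.

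The rest of the pathway was described by 57 further genes in 6 lists, of which 48 were listed. Limma called 0 of the 48. At an unadjusted *P* under 0.05, 9 were higher and 2 lower in Gata6STOP/+ pools, where all genes gave 4.17% and 3.88%. The count of higher genes depended on single pools, falling to 4 without control replicate 4, to 5 without Gata6STOP/+ replicate 4 and to 3 without Gata6STOP/+ replicate 5. The count of lower genes was 4 without control replicate 3 and 2 or 3 without any other pool. Control replicate 4 was the lowest of the 7 pools for 18 of the 48 genes (37.5%) and for 5 of the 10 members (50%), against 11.7% of all genes. The median log2 fold change of the 48 was 0.04, and groups did not overlap in 7 of them, a state found in 8.47% of all genes. Of these 7, *Bmp3* and *Chrdl1* reached the authors' expression filter through a single genotype, so their separation is not counted as support. *Chrdl1* is also among the 9 higher genes, and *Bmp3* is among the lower genes in the full fit and without any single pool. *Bmpr1b*, also among the 9, met the filter only with the help of the Gata6STOP/+ pools. *Hjv*, among the lower genes without control replicate 3 or 5, met it through the controls. None of these genes is counted as support there.

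Among 11 of 11 transcriptional targets, 8 had a positive and 3 a negative log2 fold change, with a median of 0.09. Of all genes, 7339 were positive and 7393 negative. Control replicate 4 was lowest for 8 targets (72.7%), against 11.7% of all genes. At an unadjusted limma *P* under 0.05, 3 targets were higher and 0 lower (all genes 4.17% and 3.88%). Without control replicate 4, *Hand1* and *Id4* stayed higher at that threshold and *Id3* was lower. *Id4*, a helix-loop-helix inhibitor of differentiation, was at 13.6, 14.5 and 14.3 CPM in controls and at 21.1, 19.0, 20.7 and 18.3 CPM in Gata6STOP/+ pools. Every Gata6STOP/+ pool exceeded every control, and the gap was larger than the spread in either group. Its log2 fold change was 0.47 (s.e. 0.08, limma unadjusted *P*=0.00019, adjusted *P*=0.186), and it passed in edgeR's likelihood ratio test (adjusted *P*=0.00398) and in DESeq2 (adjusted *P*=0.0057). *Hand1*, a factor of OFT and left ventricular myocardium, was at 74.1, 57.6 and 58.0 CPM in controls and at 89.5, 79.8, 88.6 and 76.8 CPM in Gata6STOP/+ pools, again without overlap. Its log2 fold change was 0.41 (s.e. 0.10, limma adjusted *P*=0.246; likelihood ratio test 0.0239 and DESeq2 0.0215). For the targets most often used as BMP readouts, the groups overlapped. *Id1* was at 98.1±14.6 and 103±6.43 CPM, *Id2* at 224±24.4 and 225±8.14 CPM, and *Id3* at 220±24.8 and 205±14.4 CPM in control and Gata6STOP/+ pools (limma adjusted *P*=0.858, 0.982 and 0.811). These 3 were named after their values were seen.

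Of the SMAD list, 5 of 5 genes were listed. *Smad9*, which encodes a BMP-activated SMAD, was at 31.3, 22.4 and 24.6 CPM in controls and at 29.9, 30.5, 32.1 and 33.1 CPM in Gata6STOP/+ pools (log2 fold change 0.27, limma adjusted *P*=0.534). Control replicate 3 lay inside the Gata6STOP/+ range. *Smad4*, the common partner SMAD, was at 112, 99.4 and 106 CPM in controls and at 116, 114, 114 and 118 CPM in Gata6STOP/+ pools. The groups did not overlap, but the log2 fold change was small at 0.13 (limma adjusted *P*=0.601). *Smad7*, the other inhibitory SMAD, was at 101±18.4 and 108±11.7 CPM (0.11, limma adjusted *P*=0.843), with control replicate 4 lowest, as for *Smad6*.

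Among 4 of 7 other ligands, *Bmp3*, which opposes BMP signaling, was at 1.44, 1.90 and 1.57 CPM in controls and at 0.877, 0.435, 0.529 and 0.930 CPM in Gata6STOP/+ pools. Every Gata6STOP/+ pool was below 1 CPM, so *Bmp3* met the authors' filter of at least 1 CPM in at least 3 samples through the controls alone, and a gene kept in this way had to differ. Its log2 fold change was -0.86 (s.e. 0.22, limma adjusted *P*=0.319; edgeR likelihood ratio test adjusted *P*=0.0340). *Gdf2*, the BMP9 ligand, was at 1.015±0.297 and 1.23±0.208 CPM (limma adjusted *P*=0.845).

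Of 9 of 9 other receptors and co-receptors, 4 had a positive and 5 a negative log2 fold change. *Bmpr1b*, a type I receptor, was at 0.911, 1.62 and 2.46 CPM in controls and at 3.89, 1.96, 2.36 and 3.05 CPM in Gata6STOP/+ pools (log2 fold change 0.64, limma adjusted *P*=0.589), with overlap. The controls alone would not have met the authors' filter for *Bmpr1b*. *Hjv*, the co-receptor hemojuvelin, was at 1.007, 5.59 and 1.23 CPM in controls and at 0.982, 0.797, 0.610 and 1.40 CPM in Gata6STOP/+ pools (-0.83, limma adjusted *P*=0.673). Control replicate 4 stood apart for *Hjv*, as it did for *Bmp10*, and the log2 fold change without it was -0.19. The Gata6STOP/+ pools alone would not have met the authors' filter for *Hjv*.

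The secreted antagonists and modulators had 14 of 19 genes listed, with 10 positive and 4 negative log2 fold changes. *Fst*, which encodes the activin- and BMP-binding protein follistatin, was at 4.08, 3.80 and 5.26 CPM in controls and at 5.33, 5.87, 6.63 and 7.68 CPM in Gata6STOP/+ pools. The groups did not overlap, with a gap from 5.26 to 5.33 CPM, and the log2 fold change was 0.50 (s.e. 0.16, limma adjusted *P*=0.428). *Chrdl1*, a chordin-like BMP antagonist, was at 0.767, 1.10 and 0.896 CPM in controls and at 1.51, 1.56, 1.14 and 1.69 CPM in Gata6STOP/+ pools (0.47, limma adjusted *P*=0.579). It met the authors' filter through the Gata6STOP/+ pools. The groups overlapped for the modulators with the highest level per length. *Fstl1* was at 1604±71.1 and 1512±207 CPM (-0.09, limma adjusted *P*=0.861) and *Twsg1* at 160±9.66 and 160±10.01 CPM (0.0009, limma adjusted *P*=0.998). Of 5 of 6 pathway proteases, *Pcsk6*, a convertase that processes TGF-beta family precursors, was at 51.7, 56.7 and 55.2 CPM in controls and at 43.0, 48.1, 44.6 and 49.3 CPM in Gata6STOP/+ pools. It was lower in every Gata6STOP/+ pool (log2 fold change -0.24, s.e. 0.07, limma adjusted *P*=0.393). *Tll1*, a tolloid-like protease, was at 5.18, 4.52 and 4.59 CPM in controls and at 6.31, 2.17, 4.92 and 3.75 CPM (-0.22, limma adjusted *P*=0.872), with Gata6STOP/+ pools both highest and lowest.

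**Figure D4:**
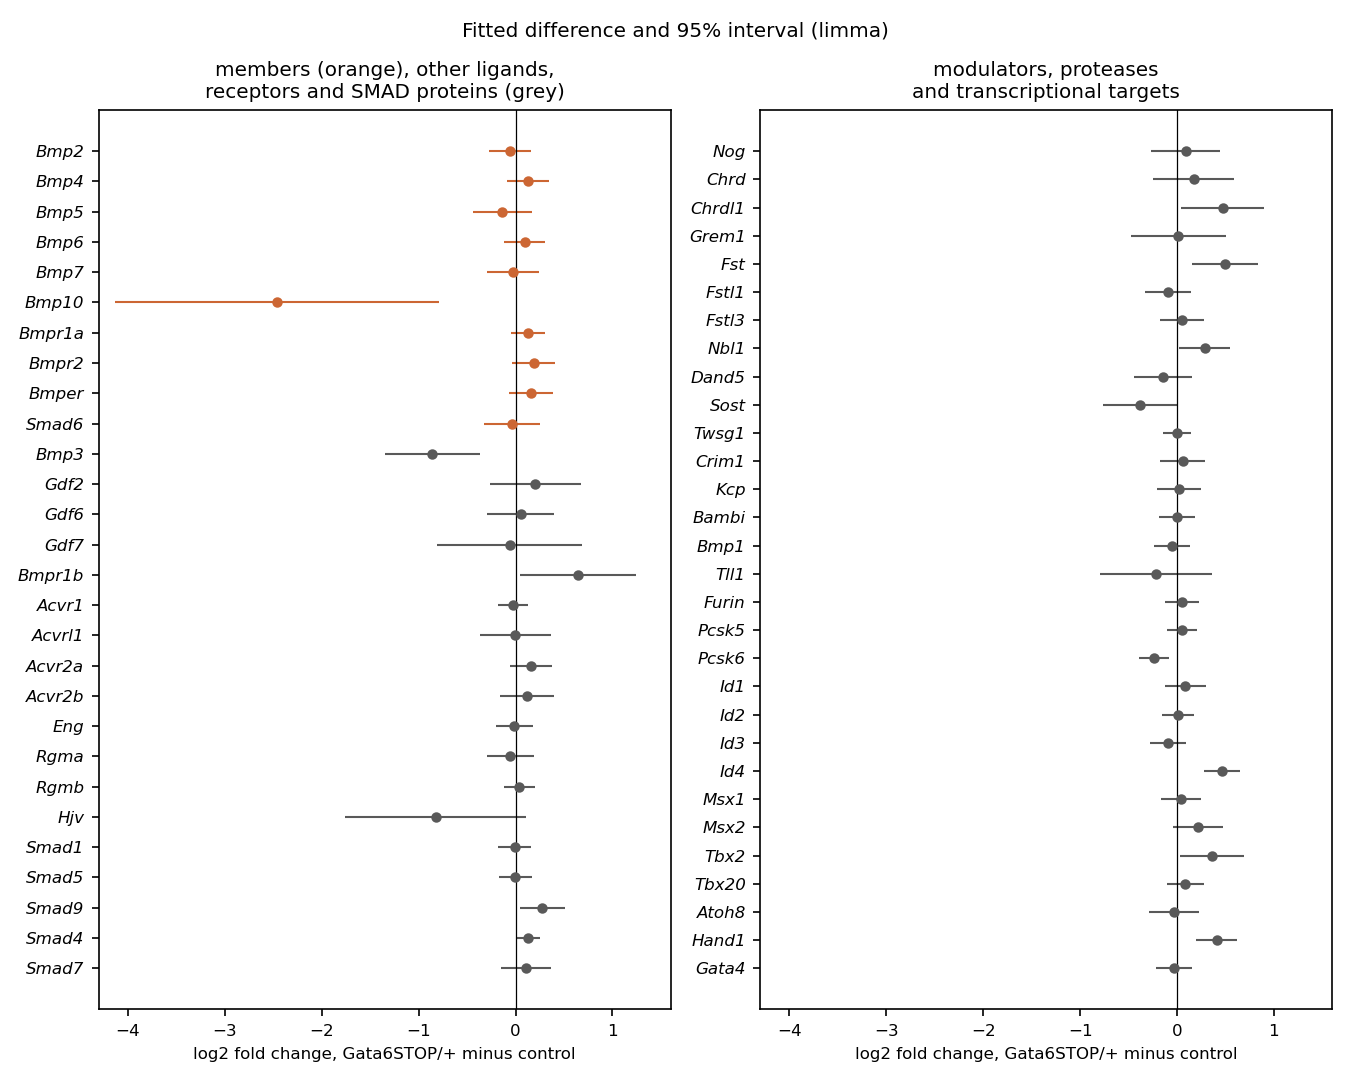
Log2 fold change on the log2(CPM + 0.5) scale (Gata6STOP/+ minus control, points) with limma's 95% interval (lines) for the 10 members in orange and 48 other BMP pathway genes in grey. *Bmp10*, at -2.46, has the lowest estimate and the widest interval (-4.13 to -0.79), and the other 9 members lie between -0.14 and 0.19.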

How the data were processed

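Poly(A) RNA of 7 pools of E11.5 OFT had been sequenced with a strand-specific kit. Per the labels and methods, the authors removed adapters (Cutadapt), estimated gene levels with RSEM on GRCm38, retained genes reaching 1 CPM in at least 3 samples and scaled by TMM (edgeR). The deposited table gives each pool a column of CPM, computed on TMM-adjusted totals. Divided by what 1 read is worth, 100% of values came out whole (within 0.01 reads). The smallest value stood for 2, 4 or 6 reads in 3 pools and 1 read in the others. The count tests were alternatives only, because the deposited values are CPM and a count model was not planned as the main test. The design text gives 3 pools per genotype and the sample labels give 3 control and 4 Gata6STOP/+ pools. Since the labels do not tell whether pools came from separate litters, *P*-values measure the spread between these pools.

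Genes were tested with limma 3.58.1 (lmFit, eBayes with trend, R 4.3.3) applied to log2(CPM + 0.5). The test was two-sided and had no covariate, with Benjamini-Hochberg adjustment over 14732 genes and a threshold of 0.05. This scale understates changes of low genes. Exact permutation tests used all 35 splits. Exon lengths and positions came from GENCODE M21, which held 14716 of the identifiers, and differ from the lengths RSEM used. Alternatives were added constants of 0.1 and 2, a mean of at least 5 CPM, median-of-ratios scaling, a replicate block, edgeR 4.0.16 and DESeq2 1.42.0 on recovered reads, and leaving out each pool. The fits were tested on simulated data. Members, gene lists and tests were chosen with earlier results of these data known. Named were the members, *Gata6*, and in each pathway list any called gene and the 2 with the smallest *P* (SMADs and secreted antagonists also the 2 highest per length), plus the 3 genes most like a member with an unadjusted *P* under 0.05. *Id1*, *Id2*, *Id3*, *Irx4*, *Myl2*, *Myl3* and *Hey2* fall outside this rule and were picked with their values in view.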

Additional observations from a re-analysis of the deposited data

Results flagged for a closer look

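*Bmper* in Gata6STOP/+ replicate 3 stood apart from the other Gata6STOP/+ pools, at 49.7 CPM against 56.1 to 57.0 CPM. Its gap to the nearest pool was 0.88 of the range of the 4 pools, above Dixon's critical value for 4 samples. Of 11 such groups tested (the members and *Gata6*), 1 was marked. Chance alone marks about 1 in 20 groups.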

How the results depend on the processing

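The number of all genes called by limma was 0 and became 1 with an added constant of 0.1, 105 with edgeR's likelihood ratio test (52 higher, 53 lower) and 88 with DESeq2. Leaving out 1 pool gave 0 to 13, with 13 without control replicate 4, 2 without Gata6STOP/+ replicate 3 and 1 without Gata6STOP/+ replicate 1. The members called numbered 0 except for 1, *Bmp10*, with the likelihood ratio test. Of the other pathway genes, the likelihood ratio test called 3 (*Hand1*, *Id4* and *Bmp3*, whose expression filter was met by the controls alone) and DESeq2 2 (*Hand1*, *Id4*). The replicate numbers were not taken as pairs, since the deviations of same-numbered pools correlated at -0.00839, -0.118 and -0.00161 and not every pool correlated best with its own number. With the replicate block, 14 genes were called by limma, 13 by the quasi-likelihood test and 118 by the likelihood ratio test, of which 1 (again *Bmp3*) was another pathway gene and 0 were members. *Gata6* passed in the last of these (log2 fold change -0.423, adjusted *P*=0.0164) and in no other setting. The likelihood ratio test without the block gave *Gata6* -0.336 (adjusted *P*=0.154). *Bmp10* was at -1.97 in limma with the block (adjusted *P*=0.575). The paper, which reports *Gata6* as decreased, does not state whether its model held the replicate numbers or every pool. Which of these choices it made was not tested. Since replicate 1 has no control, the block also takes that pool out of the comparison. In the 3 tests with the block, *Bmp7* was at 0.0802, 0.0798 and 0.0798 and *Twsg1* at -0.0299, -0.0300 and -0.0301, opposite in sign to the values without it, and limma gave the same 0.0802 and -0.0299 without Gata6STOP/+ replicate 1 and with no block. When 1 pool was left out, the sign turned for *Bmp2* (-0.13 to 0.0718), *Bmp7* (-0.14 to 0.08), *Smad6* (-0.17 to 0.12), *Twsg1* (-0.0443 to 0.0425) and *Tll1* (-0.41 to 0.0379), none of which was called in any setting, and *Bmp10* ran from -3.16 to -1.49. The cause of the other differences was not tested. Over the fold changes of single genes and all settings, 463 values kept direction and side of the threshold, 16 reversed and 8 were newly past it. With 7 pools, the permutation test cannot reach 0.05, and *Bmp10* rests on 18 to 1927 reads per pool.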
